A study of Rattus norvegicus with 2 samples.

Results

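The 10 genes described here are markers of germ cells and of the piRNA pathway: Ddx4, Dazl, Mael, Sycp3, Tdrd1, Piwil2, Dnd1, Nanos3, Kit and Prdm1. They were taken by symbol from the 23282 genes of a deposited expression table, and each had 1 row in it. The choice was made with earlier results of these data known. The table gives RPKM, a read count scaled to the length of the gene and to 1000000 reads in the library, for 2 RNA sequencing libraries of untreated rat embryonic stem (ES) cells. Both libraries are wild-type replicates of the Dark Agouti line DA-EC8/Rrrc at passage 30, with a normal karyotype, grown in 2i medium, which holds inhibitors of MEK and of GSK3. The series has this 1 group, so it holds no contrast between conditions and no test between groups. Levels are given in each replicate and as mean ± SD over both. All values come from this 1 line, and the labels say nothing of feeder cells.

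Germ cells arise early in the embryo as primordial germ cells, which share many transcription factors with pluripotent stem cells. They then switch on genes for guarding the genome and for meiosis. In the piRNA pathway, Piwi proteins carry small RNAs that recognise transposon transcripts, and helicases and Tudor domain proteins assemble them into granules beside the mitochondria. Outside the germ line the promoters of many such genes are silenced by DNA methylation, and in ES cells also by a Polycomb complex whose subunits recognise E-box and E2F motifs.

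Most of the 10 genes were transcribed at low to moderate level in these ES cells. Of the 10, 8 had a mean of 1 RPKM or more, the level counted here as detected, against 46.4% of all genes in the table. Sycp3, Ddx4 and Kit, 3 of them, had a mean of 10 RPKM or more, against 29.4% of all genes. The median of the 10 was 5.80 RPKM in the first library (replicate 1) and 5.85 RPKM in the second (replicate 2). In the same order the median of all genes was 0.556 and 0.516 RPKM, and 8902 of those genes were listed at 0 in both replicates. Among the 10814 genes at a mean of 1 RPKM or more the median was 16.7 RPKM, above 8 of the 10 germ cell genes. Only Sycp3 and Ddx4 lay above it. In bulk RNA a gene used strongly by few cells and one used weakly by all cells cannot be told apart.

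**Figure D1:**
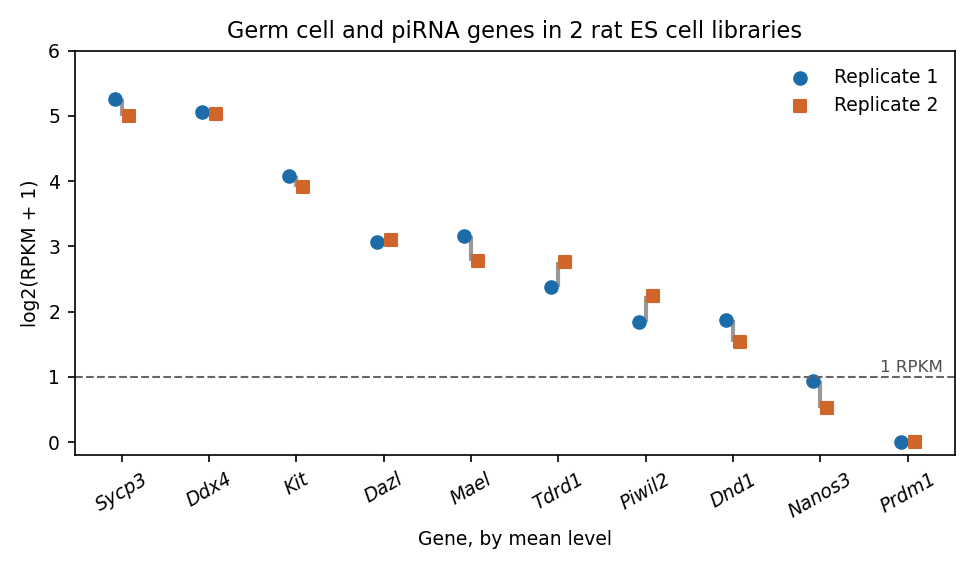
Level of each germ cell and piRNA gene on the log2(RPKM + 1) scale in replicate 1 (circles) and replicate 2 (squares), with a grey line joining the replicates and a dashed line at 1 RPKM. Sycp3 and Ddx4 lead, 8 genes lie above the line in both replicates, Nanos3 lies below it in both, and Prdm1 is at 0.

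The genes lay on 10 different chromosomes, so no 2 of them shared a locus. Promoter windows of RefSeq, build GRCr8, were at hand for 9 of the 10, all but Piwil2. Each window runs from 250 bases before a start site to 50 bases after it. The palindromic E-box CACGTG, which reads the same on both strands, was present in 4 of these 9 windows, those of Sycp3, Ddx4, Mael and Tdrd1. It was present in 7.56% of the 18303 windows of genes in the deposited table and in 9.95% of the windows of genes at 1 RPKM or more. The E2F-like motif TCCCGC, searched on both strands, was present in 5 of the 9 windows, the same 4 and that of Kit, against 26.6% of windows in the table. That share was 36.7% among genes at 1 RPKM or more and 43.6% among windows with a ratio of observed to expected CpG of at least 0.6. All 4 windows with the E-box thus also held TCCCGC, a pairing seen in 2.61% of windows in the table and in 3.86% of those of genes at 1 RPKM or more. Among windows with a CpG ratio of at least 0.6 it was seen in 4.71%. In Sycp3 and Mael the TCCCGC match lies after the start site, at base 30 and base 15. Before the start only Ddx4 and Tdrd1 held both motifs. With 9 windows these shares are a description only, and a match in letters is not a bound site. The 5 E-boxes of the 4 windows that hold one are shown here. Each line gives 30 bases in the direction of the gene, 5′ to 3′, with the E-box in capitals.

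Sycp3, 85 bases before the start, chr7:24761379-24761408, plus strand: gccgttggctacCACGTGagagcaggcaca

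Sycp3, 64 bases before the start, chr7:24761400-24761429, plus strand: gcaggcacagagCACGTGctatggggcgga

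Ddx4, 80 bases before the start, chr2:46016014-46016043, minus strand: tcccggcgtccgCACGTGcagccgtttaag

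Mael, 221 bases before the start, chr13:81029827-81029856, minus strand: caccaggcctacCACGTGacaattccccgc

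Tdrd1, 87 bases before the start, chr1:265880926-265880955, plus strand: cggagctgagcgCACGTGggagcagactgc

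The E-boxes of Sycp3, Ddx4 and Tdrd1 lay between 64 and 87 bases before the start site of their window, and that of Mael lay farther out. The 250 bases before the start are given for 3 genes that differ in these features: Sycp3 with 2 E-boxes, Mael with 1, and Dazl with none. E-boxes are in capitals.

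Sycp3, chr7:24761226-24761475, plus strand: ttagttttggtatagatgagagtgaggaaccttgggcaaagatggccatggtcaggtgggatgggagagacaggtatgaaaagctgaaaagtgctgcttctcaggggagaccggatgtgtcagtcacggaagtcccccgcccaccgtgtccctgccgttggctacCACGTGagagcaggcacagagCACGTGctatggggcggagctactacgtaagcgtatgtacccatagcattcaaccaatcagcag

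Mael, chr13:81029624-81029873, minus strand: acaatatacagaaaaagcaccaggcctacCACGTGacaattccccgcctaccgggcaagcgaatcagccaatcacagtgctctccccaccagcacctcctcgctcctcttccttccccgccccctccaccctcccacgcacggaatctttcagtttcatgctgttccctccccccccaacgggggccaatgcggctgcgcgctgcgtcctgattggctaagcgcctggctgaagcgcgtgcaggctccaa

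Dazl, chr9:18193113-18193362, plus strand: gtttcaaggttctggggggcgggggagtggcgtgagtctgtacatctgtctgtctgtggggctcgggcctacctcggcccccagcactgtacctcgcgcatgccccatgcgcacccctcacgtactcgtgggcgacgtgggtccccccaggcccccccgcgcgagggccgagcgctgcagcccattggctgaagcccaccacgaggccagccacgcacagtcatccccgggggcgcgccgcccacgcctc

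CpG sites, the targets of DNA methylation in mammals, were frequent in most of the windows. The ratio of observed to expected CpG was at least 0.6 in 6 of the 9 windows, against 50.2% of windows in the table and 74.7% of those of genes at 1 RPKM or more. It was 0.916 for Ddx4, 0.830 for Dazl, 0.827 for Tdrd1, 0.769 for Prdm1, 0.766 for Mael and 0.693 for Kit. Dnd1 at 0.534 and Sycp3 at 0.489 were lower, and Nanos3 had the lowest ratio, 0.0406, with 1 CpG in 300 bases. The Nanos3 window lies 741 bases inside the locus, on the plus strand in GRCr8 where the deposited rn5 table has minus, so it may not be the promoter used here. The start site of the Tdrd1 window lies still deeper, 4167 bases inside its locus, so the same limit holds for the E-box of Tdrd1. The ratio did not order the genes as their levels did. Sycp3, with the highest level, had a lower ratio than Dazl, at a mean of 7.50 RPKM. Among windows in the table with a ratio of at least 0.6 the E-box was present in 10.7%. No methylation was measured in this series.

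**Figure D2:**
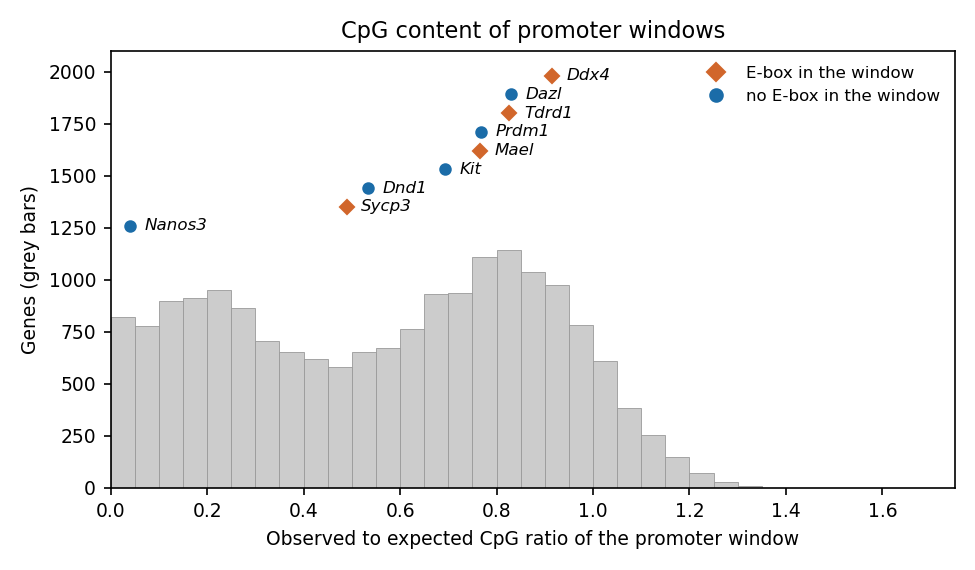
Observed to expected CpG ratio of 300-base promoter windows. Grey bars count windows of genes in the deposited table, although the axis label reads genes, and some genes have several windows. The 9 germ cell genes are drawn above at arbitrary height. Diamonds mark the 4 windows with the E-box, which range from a ratio of 0.489 for Sycp3 to 0.916 for Ddx4, and Nanos3 stands apart at 0.0406.

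The meiotic gene Sycp3 had the highest level of the 10. Sycp3 encodes a protein of the lateral element of the synaptonemal complex, the axis along which homologous chromosomes align in meiosis (Entrez gene 25561, rn5 chromosome 7, 29136815 to 29151275). Replicate 1 had 37.5 RPKM and replicate 2 had 31.0 RPKM, a mean of 34.2 ± 4.57 RPKM (SD, n = 2), above 86.3% of all genes. The other genes of the complex in the fixed lists were lower, to unequal degrees. Sycp2, the other lateral element gene, was at 1.21 and 0.695 RPKM. Sycp1, which encodes the transverse filament that joins the axes, was at 0.808 and 0.577 RPKM. The central element genes were between these and Sycp3, with Tex12 at 18.0 and 15.0 RPKM, Syce2 at 8.21 and 7.40 RPKM, Syce3 at 6.59 and 8.31 RPKM and Syce1 at a mean of 1.64 RPKM. The replicates of Sycp3 lay above those of all 6 without overlap.

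Some caution applies to the level of Sycp3. Its locus overlaps by 433 bp that of Chpt1, a phospholipid synthesis gene on the opposite strand at 10.9 and 11.5 RPKM. The TruSeq RNA kit named in the labels does not mark strand, so reads in the shared stretch cannot be assigned from strand. The table also names 5 paralogs of Sycp3, which range from RGD1559891, listed at 0, to RGD1563270 at 255 and 234 RPKM. How reads that fit several genes were counted is not given in the sources used here, and the part of either in the Sycp3 level was not tested.

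The RNA helicase gene Ddx4, also known as Vasa, came next and was the most even of the higher genes. Ddx4 is a DEAD box helicase of germ granules (Entrez gene 310090, rn5 chromosome 2, 63489384 to 63545657, minus strand). It was at 32.2 and 31.6 RPKM, a mean of 31.9 ± 0.444 RPKM (SD, n = 2). Both values lie inside the range of the Sycp3 replicates, so the order of these genes is not larger than the spread. Steps in the deposited values point to 244 reads behind Ddx4 in each library, over a gene model of 2531 bp. A 95% exact Poisson interval for such a count runs from 28.3 to 36.5 RPKM for the first replicate and from 27.8 to 35.8 RPKM for the second. Its closest relative in the fixed lists, the broadly used helicase gene Ddx3x, was at 238 and 250 RPKM. RGD1309586, the paralog of Ddx4 named in the table, was at 15.0 and 16.2 RPKM. The flanking genes Il31ra and Slc38a9, named here only for their position, were at a mean of 2.53 and 15.7 RPKM, both below Ddx4.

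Kit and its ligand were both transcribed. Kit encodes the receptor tyrosine kinase that supports the survival and migration of primordial germ cells (Entrez gene 64030, rn5 chromosome 14, 34903278 to 34979346, minus strand). It was at 15.9 and 14.0 RPKM, a mean of 15.0 ± 1.37 RPKM (SD, n = 2), below both replicates of Ddx4 and above both of Dazl. These values rest on 182 and 163 reads over a model of 3819 bp, and their 95% Poisson intervals overlap. The ligand gene, in the table as Kitlg, was at 40.0 and 37.2 RPKM, above Kit in each replicate. Kdr and LOC100363334, the listed genes on either side of Kit, were at 0 in both replicates.

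Among its receptor tyrosine kinase relatives Kit was second. Of the 13 paralogs of Kit named in the table, Fgfr1 was higher, at 119 and 109 RPKM, and Fgfr3 came just below, at 12.7 and 13.1 RPKM. Its closest relatives in the same class of kinases were low. Flt3 was at 1.89 and 2.68 RPKM, Pdgfra at 0.0513 and 0.101 RPKM, Pdgfrb at 0.125 and 0 RPKM, and Csf1r was listed at 0 in both. Kit had the highest listed value of the 5 kinase genes of this class in both libraries.

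Kit also marks blood progenitors, mast cells and melanocytes. Of 10 genes of those cells 2 reached a mean of 1 RPKM, Pmel at 2.04 RPKM and Mitf at 1.00 RPKM, both pigment cell genes, and the third highest, Ptprc, was at 0.0324 RPKM. Summed over the list, replicate 1 had 3.24 RPKM and replicate 2 had 2.91 RPKM. The rest of the list, Cpa3, Fcer1a, Cd34, Gata2, Tyr, Dct and Tyrp1, was listed at 0 in both, from which no level can be read.

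The RNA-binding proteins of the germ line ranged from Dazl, clearly detected, to Nanos3, at the limit of detection. Dazl, a translational regulator that germ cells need to commit to their fate (Entrez gene 680486, rn5 chromosome 9, 11575025 to 11591973), was at 7.40 and 7.59 RPKM, a mean of 7.50 ± 0.131 RPKM (SD, n = 2). The related gene Boll, which acts later in spermatogenesis, was listed at 0 in both. The Dazl locus lies wholly within that of LOC302192, on the opposite strand, which was listed at 0 in both replicates. Reads of the shared stretch cannot be assigned from strand, and their part in the Dazl level was not tested.

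Dnd1, which protects germ cell transcripts and recruits the CCR4-NOT deadenylase (Entrez gene 679841, rn5 chromosome 18, 29312395 to 29315019, minus strand), was at 2.65 and 1.90 RPKM, a mean of 2.28 ± 0.534 RPKM (SD, n = 2). Its locus overlaps by 143 bp that of Wdr55, a gene of ribosome formation on the opposite strand, which was at 22.1 and 23.4 RPKM. Without strand the reads of the shared stretch cannot be told apart, and their part in the low Dnd1 value was not tested. The other neighbours of Dnd1 were also active. Hars, a tRNA synthetase gene on the same strand that ends 332 bp away, was at a mean of 27.6 RPKM, and Ik at 86.4 RPKM.

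Nanos3, a zinc finger protein that keeps migrating germ cells alive (Entrez gene 288909, rn5 chromosome 19, 36262009 to 36265435, minus strand), was at 0.906 and 0.444 RPKM. These values correspond to 2 reads and 1 read over a model of 738 bp, and the 95% Poisson intervals, from 0.110 to 3.27 and from 0.0112 to 2.47 RPKM, overlap. Nanos1 was at 2.17 and 1.66 RPKM and Nanos2, which acts in male germ cells, was listed at 0. At this depth no order between Nanos3 and Nanos1 can be read.

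The partners of these proteins in RNA decay and translation were abundant. Of 10 partner genes 9 reached 10 RPKM, against 29.4% of all genes, with a median of 63.2 ± 3.14 RPKM (SD, n = 2) over the list. Cnot1, the scaffold of the CCR4-NOT deadenylase, was highest at 126 ± 9.36 RPKM, followed by Cnot2 at 94.1 ± 1.84 RPKM and Pum2, a Pumilio protein that works with Nanos proteins, at 86.8 ± 5.07 RPKM. Boll, the relative of Dazl given above, stands in this list too and was the only one not detected. The other 9 act in most cell types, and their levels are given for comparison only.

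Besides Ddx4, the piRNA genes Mael, Tdrd1 and Piwil2 had means from 3.17 to 6.91 RPKM. Mael, an HMG box protein of the piRNA granules (Entrez gene 364039, rn5 chromosome 13, 89287037 to 89326509, minus strand), was at 7.93 and 5.89 RPKM, a mean of 6.91 ± 1.45 RPKM (SD, n = 2). Both Dazl values lay inside this range. Tdrd1, a Tudor domain protein that docks Piwi proteins (Entrez gene 292129, rn5 chromosome 1, 285021523 to 285065106), was at 4.20 and 5.81 RPKM, a mean of 5.01 ± 1.14 RPKM. Its higher value was just under the lower value of Mael, so the ranges did not overlap but nearly met. Piwil2, a Piwi protein of fetal germ cells in the mouse (Entrez gene 306011, rn5 chromosome 15, 55760795 to 55839495, minus strand), was at 2.59 and 3.75 RPKM, a mean of 3.17 ± 0.816 RPKM. Its range lay below that of Tdrd1 and overlapped that of Dnd1. Reads behind Mael numbered 37 and 28 over a model of 1559 bp, and those behind Piwil2 numbered 38 and 56 over a model of 4899 bp. The 95% Poisson intervals of the replicates overlapped for both genes, from 1.84 to 3.56 RPKM against 2.83 to 4.87 RPKM for Piwil2.

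**Figure D3:**
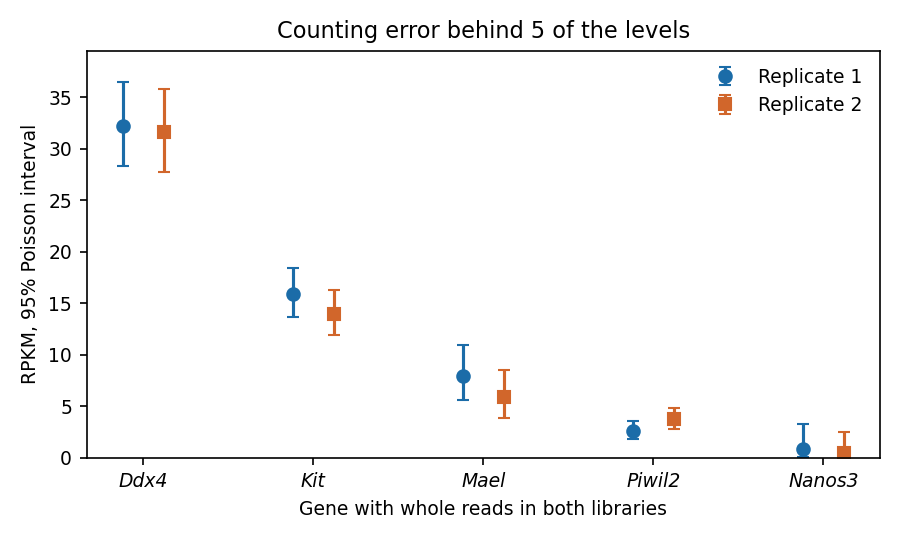
RPKM of the 5 genes whose values came out as whole reads in both libraries, with 95% exact Poisson intervals as bars, for replicate 1 (circles) and replicate 2 (squares) on a linear axis. The intervals of the replicates overlap for all 5, from Ddx4 at 244 reads in each library to Nanos3 at 2 reads and 1 read.

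Piwil2 was the Piwi gene with the highest level. Piwil1, which acts in later male germ cells, was at 0.668 and 0.655 RPKM, and Piwil4, the nuclear Piwi protein of fetal male germ cells, was at 0.108 and 0 RPKM. Both lay below the 2 values of Piwil2. Their Argonaute relatives, which carry microRNAs and small interfering RNAs in most cells, were partly higher. Ago1, in the table as Eif2c1, was at 48.1 and 42.9 RPKM and Ago2 at 16.1 and 13.8 RPKM, above both values of Piwil2. Ago3 was at 2.65 and 2.33 RPKM, which overlaps the range of Piwil2, and Ago4 was at 0.0895 and 0 RPKM.

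Tdrd1 stood in the middle of the Tudor family. Of 10 Tudor genes 7 reached 1 RPKM, against 46.4% of all genes, with a list median of 5.07 ± 0.0811 RPKM (SD, n = 2). Tdrkh, which anchors Piwi proteins at mitochondria for trimming, was highest at 18.0 ± 0.938 RPKM, followed by Stk31 at 13.6 ± 0.515 RPKM, Tdrd7 at 7.61 ± 0.378 RPKM and Rnf17 at 6.62 ± 0.635 RPKM. Tdrd3, a Tudor gene outside the piRNA pathway, was at 5.14 ± 0.979 RPKM and Tdrd12 at 2.65 ± 0.293 RPKM. Tdrd9 and Tdrd5 were at 0.917 and 0.783 RPKM, and Tdrd6, known from the chromatoid body of spermatids, was lowest at 0.242 and 0.237 RPKM.

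Most other genes of the piRNA pathway were also detected. Of 23 such genes 15 reached a mean of 1 RPKM, against 46.4% of all genes, and 9 reached 10 RPKM, against 29.4%. Exd1 and Morc1 were listed at 0 in both replicates. The list median was 6.32 ± 0.205 RPKM (SD, n = 2). Prmt5, the methyltransferase whose marks on Piwi proteins are read by Tudor domains, was highest at 129 ± 0.425 RPKM, but it also serves splicing in all cells. Its cofactor gene Wdr77 was at 1.15 and 0.807 RPKM. Tex15, which germ cells use to direct methylation to transposons, was at 63.9 ± 3.32 RPKM and Gpat2, a mitochondrial partner of Piwil2, at 26.3 ± 6.90 RPKM. Genes of piRNA processing on the mitochondrial surface were also above Piwil2. Asz1, also named Gasz, was at 16.6 and 17.2 RPKM, the helicase gene Mov10l1 at 12.1 and 13.2 RPKM, the trimming nuclease gene Pnldc1 at 11.0 and 11.2 RPKM, and the nuclease gene Pld6 at 6.34 and 6.46 RPKM. The co-chaperone gene Fkbp6 was at 12.8 and 12.1 RPKM, and the piRNA methyltransferase gene Henmt1 at 1.32 and 1.30 RPKM. Each of these but Henmt1 lay above both values of Piwil2.

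Prdm1 was the only one of the 10 listed at 0 in both replicates. Prdm1, also named Blimp1, is the repressor that starts germ cell fate in the mouse embryo (Entrez gene 309871, rn5 chromosome 20, 51096616 to 51118240, minus strand). Silence cannot be read from such a value, since Rps6, a ribosomal protein gene that every cell uses, was also listed at 0 in both. In a gene model of 2 kb, 3 reads would give 0.501 RPKM in the first library and 0.492 RPKM in the second, the level that a count of 0 still allows for such a model, from counting error alone. The genes on either side, Atg5 and Prep, were at a mean of 10.7 and 60.1 RPKM. Prdm2, the paralog named in the table, was at 75.7 and 71.4 RPKM. Prdm1 also marks plasma cells. Of 5 measured genes of the plasma cell list Sdc1, at 23.4 RPKM, and Xbp1, at 7.54 RPKM, reached 1 RPKM, and both are widely used outside blood. Irf4 was at 0.209 and 0 RPKM, and Cd79a was listed at 0.

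The list of other early germ cell genes had a median above each of the 10. Of its 12 genes 11 reached 1 RPKM, against 46.4% of all genes, and 9 reached 10 RPKM, against 29.4%. The receptor gene Cxcr4, at a mean of 0.679 RPKM, was the 1 below. The list median was 39.8 ± 1.91 RPKM (SD, n = 2). The list includes the ligand genes Kitlg, at a mean of 38.6 RPKM, and Cxcl12, at 17.9 RPKM, so these values do not describe germ cell markers alone. Lin28a, which holds back let-7 microRNAs, was highest at 129 ± 2.00 RPKM, followed by the zinc finger gene Sall4 at 123 ± 5.50 RPKM and Tfap2c at 106 ± 4.36 RPKM. Tfap2c and Prdm14 are known to act with Prdm1 in starting germ cell fate. Prdm14 was at 12.9 and 9.56 RPKM. Sall4 and Prdm14 stand in the table under provisional symbols and were matched by Entrez identifier. Lin28a, Sall4, Tfap2c and Prdm14 are all known in naive ES cells too, so they do not separate the cell types. Pluripotency genes used to check the label were high: 10 of 10 reached 1 RPKM and 9 reached 10 RPKM, with Utf1 at 655 RPKM, Pou5f1 at 584 RPKM and Tdgf1 at 344 RPKM.

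Beyond Sycp3, meiotic genes were unevenly present. Of 25 other genes of meiosis 13 reached 1 RPKM, near the share of 46.4% over all genes, 4 reached 10 RPKM, against 29.4% of all genes, and 5 were listed at 0 in both, with a list median of 1.10 ± 0.153 RPKM (SD, n = 2). Hormad2, which watches over chromosome pairing, was highest at 36.4 and 38.5 RPKM, values that overlap those of Sycp3. The meiotic cohesin gene Stag3 was at 24.9 and 25.8 RPKM and Tex12, given above, came next. Other cohesin genes of meiosis differed: Smc1b was at 12.2 and 9.28 RPKM and Rad21l1 at 4.83 and 7.49 RPKM, while Rec8 was listed at 0. Genes of the start of meiosis and of its DNA breaks differed too. Ythdc2, an RNA helicase needed to enter meiosis, was at 4.52 and 3.82 RPKM, and Mei1, needed for the breaks, at 8.90 and 6.28 RPKM. Stra8, the retinoic acid target that starts meiosis, and Spo11, the enzyme that cuts DNA, were listed at 0 in both, from which no level can be read. Dmc1, which pairs the broken ends with the homologue, was at 0.129 and 0.506 RPKM.

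Most genes of mature germ cells were listed at 0, as Rps6 was, so their silence cannot be read from these values. Of 11 spermatid genes 9, the protamine genes Prm1 and Prm2 among them, were listed at 0 in both, and Odf1, at 1.42 RPKM, and Tssk6, at 1.27 RPKM, reached 1 RPKM. Of 14 oocyte genes 10 were listed at 0, and Ooep, at 2.07 and 5.07 RPKM, and Zp3, at 1.52 and 2.73 RPKM, reached 1 RPKM, ahead of Nobox at 0.212 and 0 RPKM. Of 12 genes of the somatic cells of the gonad only Sox9 reached a mean of 1 RPKM, at 1.38 RPKM, followed by Fshr at 0.415 and 1.18 RPKM and Dhh at 0.500 RPKM. Their sums were 3.76 and 3.58 RPKM in the replicates, with Amh, Wt1, Gata4, Cyp11a1 and Insl3 listed at 0. Of 8 genes of spermatogonia 3 reached 1 RPKM: Uchl1 at 188 RPKM, the transcription factor gene Sohlh2 at 88.5 RPKM and Id4 at 1.53 RPKM. Uchl1 is also widely used outside the testis. The Sohlh2 partner gene Sohlh1 was at 0.311 and 0 RPKM, and Nanos2 and Gfra1 were listed at 0.

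**Figure D4:**
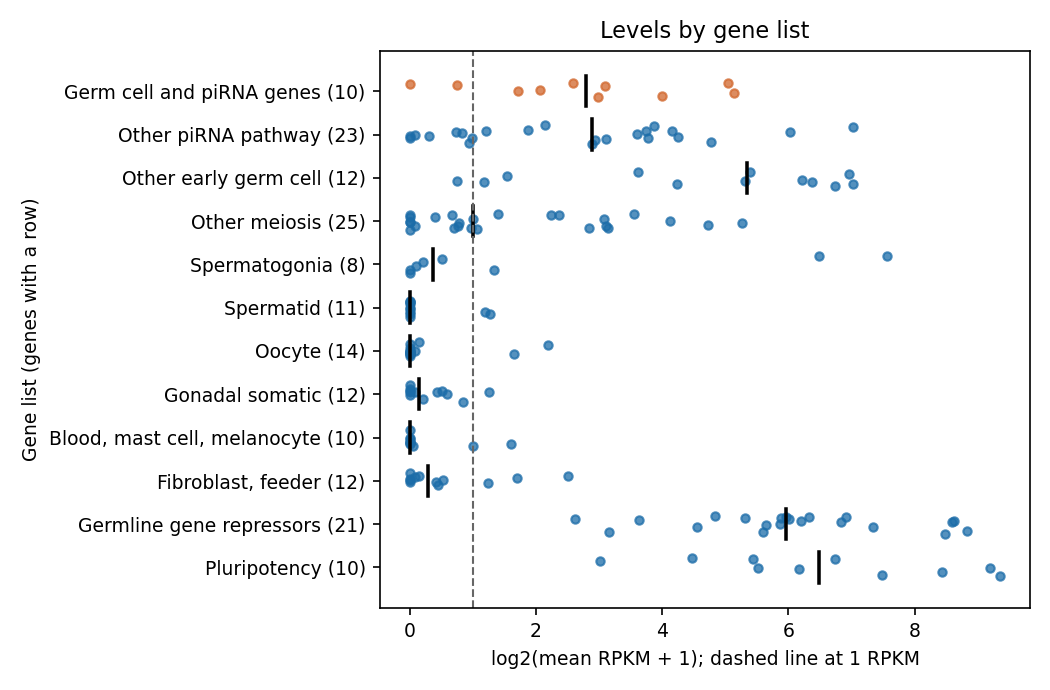
Mean level of each gene on the log2(RPKM + 1) scale by gene list, with 1 point per gene, a black bar at the median of the points and a dashed line at 1 RPKM. The germ cell and piRNA genes lie near the other piRNA pathway genes, above the spermatid, oocyte and gonadal somatic genes, most of which are listed at 0 or below 1 RPKM, and below the pluripotency genes.

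Genes known to silence germ line promoters were all detected. Of 21 such genes 21 reached 1 RPKM, against 46.4% of all genes, and 19 reached 10 RPKM, against 29.4%. The list median was 61.2 ± 0.219 RPKM (SD, n = 2). Below a mean of 10 RPKM were Ring1 at 9.86 and 5.99 RPKM and Cbx3 at 5.84 and 4.39 RPKM. The 3 highest were Dnmt3b at 453 ± 2.53 RPKM, Wdr5 at 392 ± 2.11 RPKM and Uhrf1 at 387 ± 7.56 RPKM. Of the Polycomb complex that binds E-box and E2F motifs, Mga was at 27.5 and 27.5 RPKM, Max at 41.5 and 35.6 RPKM, Pcgf6 at 61.1 and 53.1 RPKM, L3mbtl2 at 114 and 113 RPKM and E2f6 at 21.2 and 23.8 RPKM. Binding of these factors was not measured, and whether they act on the 4 windows with an E-box was not tested.

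Gene Ontology terms in the deposited table, looked up after the levels were seen, place the 10 genes among others of like function. The spermatogenesis term held 262 genes, 7 of the 10 among them, and 55.0% of its genes reached 1 RPKM, near the 46.4% of all genes. The germ cell development term held 30 genes, 5 of the 10 among them, with 73.3% at 1 RPKM. The chromatoid body term held 9 genes, of which Ddx4, Mael, Tdrd1 and Piwil2 are 4, and 6 reached 1 RPKM, these 4 among them. The term for DNA methylation in gamete formation held 12 genes, of which Mael, Tdrd1 and Piwil2 are 3, and 8 reached 1 RPKM, these 3 among them. Each of these counts includes members of the 10, so it is not separate from their own levels.

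No gene of the 10 differed between the replicates by over 1.5-fold in RPKM + 1, against 3.74% of all genes, so a count of 0 among 10 is near that share. The widest ratio was 1.32, for Piwil2. The added 1 holds down the ratio of low genes: with 0.1 added instead, Nanos3, at 0.906 and 0.444 RPKM, was over 1.5-fold apart. Of the 9 genes above 0, 6 were higher in replicate 1 and 3, Dazl, Tdrd1 and Piwil2, in replicate 2. Read totals of 2991184 and 3050685 are those that bring the most low values to whole reads, 380 of 2700 values of short loci in the first library and 382 of 2688 in the second. With them 5 of the 9 came out whole in both libraries and 4 did not: Sycp3, Dazl, Tdrd1 and Dnd1. Of these 4, Sycp3, Dazl and Dnd1 are the genes whose loci overlap that of another gene. All 5 that came out whole had overlapping Poisson intervals. Fibroblast and feeder cell genes summed to 6.70 RPKM in the first replicate and 12.5 RPKM in the second. Of these 12 genes 3 reached a mean of 1 RPKM, Col1a1 at 4.70 RPKM, Col3a1 at 2.24 RPKM and Thy1 at 1.37 RPKM, and Col1a2, Lum, S100a4 and Twist2 were listed at 0. Its part in the replicate differences of the germ cell genes was not tested.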

How the data were processed

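RNA of 2 replicates of 1 rat ES cell line was sequenced as paired reads, per the labels. The authors deposited RPKM values for 23716 rows, positioned on rn5 per the submitters' processing notes, which name CASAVA 1.8 and TopHat 1.4.0. How reads were counted, and whether by strand, is not given in the sources used here.

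Rows were joined by Entrez identifier and summed, giving 23282 genes. List genes absent by symbol were found by identifier through a RefSeq table of GRCr8, and Jchain was not analysed here. Genes with a mean of 1 RPKM or more were called detected, and replicate ratios used a pseudocount of 1. No count model fits RPKM, and none was run. Read totals are those that brought the largest number of values of loci under 6000 bp to whole reads, at up to 30 reads and with the locus as the gene model: 380 of 2700 in replicate 1 and 382 of 2688 in replicate 2. The other values were not whole on that assumption, and the read counts rest on these totals. A gene counted as whole where 1 model length from 60 to 20000 bp made both libraries whole within a relative tolerance of 3e-07. The true length may be a multiple of that length, which would mean more reads and narrower intervals. Intervals and floors cover counting error only, and reads without molecular identifiers are not independent molecules. SDs measure the spread between these samples, and nothing but the design text says that they came from separate cultures.

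The 10 genes and the lists were chosen with earlier results of these data known. The genes named are the 10, the 3 highest of each list, and the families of the 10. Other genes were named after their values were seen: further members of the piRNA, meiosis, repressor and marker lists, neighbours, paralogs and genes listed at 0. Promoter windows came from RefSeq, build GRCr8. Python 3.11.15 was used, with the packages pandas 2.3.3 and numpy 2.4.6, intervals from scipy 1.17.1, and plots from matplotlib 3.10.9. Alternatives were minimums of 0.3 and 3 RPKM, a pseudocount of 0.1, each replicate alone, the highest row per gene, rescaled libraries, a median-centred replicate 2, members above 0 only, and motifs before the start only.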

Additional observations from a re-analysis of the deposited data

How the results depend on the processing

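No paired analysis was possible because the series has 1 group. Of 127 values under alternatives, 113 stayed within 1.5 times the count or within the spread between replicates. Part of the 113 was fixed in advance and says nothing of stability. With 2 replicates, either one alone always lies within the SD of their mean. The 10 genes have 1 row each, so taking the highest row changed none of their values. The number of the 10 genes at 1 RPKM was 8 in each replicate alone and 9 with a minimum of 0.3 RPKM. Shares of all genes in single replicates and at minimums of 0.3 and 3 RPKM were not computed. Counts at these settings are therefore a description only, since a lower minimum admits more genes of any kind. Rescaling each library to a sum of 1000000 multiplies every gene by 2.28 or 2.30 and so only shifts the minimum. It brought 6 of the 10 to the 10 RPKM level instead of 3, with 37.3% of all genes there, and 3 gonadal somatic genes to the 1 RPKM level instead of 1. Leaving out Prdm1, listed at 0, moved the median of the 10 to 6.65 RPKM. With a pseudocount of 0.1, 1 of the 10, Nanos3, was over 1.5-fold apart. In the 250 bases before the start TCCCGC was present in 3 of 9 windows, near the 31.7% of windows of genes at 1 RPKM or more, and the E-box still in 4, against 8.67%. Only the windows of Ddx4 and Tdrd1 held both motifs there. With a minimum of 3 RPKM the counts were 0 spermatid, 1 oocyte, 0 gonadal somatic, 0 blood and pigment cell, and 1 fibroblast gene. With a minimum of 0.3 RPKM they were 5 gonadal somatic and 6 fibroblast genes. In single replicates gonadal somatic genes numbered 1 to 2, with 2 when replicate 1 was left out, and blood and pigment cell genes 1 to 2, with 1 when replicate 1 was left out. Depth limits Nanos3, with 2 reads and 1 read.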
